A study of Danio rerio with 6 samples.

Results

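The translation efficiency of the protein-coding and other genes of the wild-type zebrafish embryo at 72 h after fertilization is described here, gene class by gene class and within 1 genotype. The genes are those with a ratio above 0 in both wild-type libraries, which were 18956 of the 21392 genes in the deposited table. The series compared embryos mutant for mycn, a Myc family transcription factor, with AB-strain wild types. It holds 2 Ribo-seq libraries and 1 RNA-seq sample of each genotype, 6 samples in all, each made from whole embryos that were dissociated to single cells for Ribo-seq. The sources used here do not give how many embryos were pooled or whether both replicates came from separate clutches, so the spread between replicates may be technical. The mutant libraries enter below only where 1 check needs them. In mycn itself the ratio was 0.429 and 0.342 in the mutant libraries and 0.446 and 0.302 in the wild-type libraries, and a ratio of footprints to mRNA does not check the genotype.

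Ribosome profiling sequences the short stretches of mRNA that translating ribosomes shield from nuclease. Dividing the footprint level of a gene by the level of its mRNA gives its translation efficiency, a measure of how densely each mRNA is covered by ribosomes. It is known to vary with the rate of initiation, with upstream open reading frames that capture scanning ribosomes, and with the speed of elongation. By the column names both levels are read as FPKM, that is, scaled for gene length and for library size. Ratios are compared between genes on that reading. The region over which reads were counted is not given, and it can move the ratios of genes unequally. A ratio of 1 marks no absolute number of ribosomes. The ratio alone does not tell a gene with many footprints from one with little measured mRNA. Wherever a pair of values is given without further words, the first is replicate 1 and the second replicate 2.

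The values themselves showed how well a gene was covered. In replicate 1 62.6% of the genes, and in replicate 2 65.7%, shared their ratio with another gene of the same library to 9 significant digits, which is what ratios of small whole numbers do, and such values are called repeated here and taken as poorly covered. In replicate 1 105 genes had exactly the ratio 9.7345, and 33 of the 60 commonest ratios were that number divided by a whole number. In replicate 2 the corresponding number was 13.2091, shared by 109 genes, with 39 of the 60 commonest ratios as whole-number parts of it. In all, 14356 genes (75.7%) had a repeated value in 1 or both libraries and 4600 (24.3%) had none.

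Genes without a repeated value were measured far more alike in both libraries. Their median fold difference between the libraries was 1.13, against 1.36 for genes with a repeated value. Across these 4600 genes the Pearson correlation of log2 ratios was 0.962 and the Spearman correlation 0.923, while across the other 14356 genes they were 0.723 and 0.642. These correlations are across genes, which are not independent replicates and which share the library scaling. The libraries also shared their mRNA measurement. Of 401 genes whose ratio was the scale divided by a whole number above 20 in both wild-type libraries, 215 (53.6%) had the same divisor in both, whereas between a mutant and a wild-type library 1.32% to 2.33% did. The spread between the 2 libraries therefore leaves out the error of the mRNA measurement, and every SD below does so too.

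**Figure D1:**
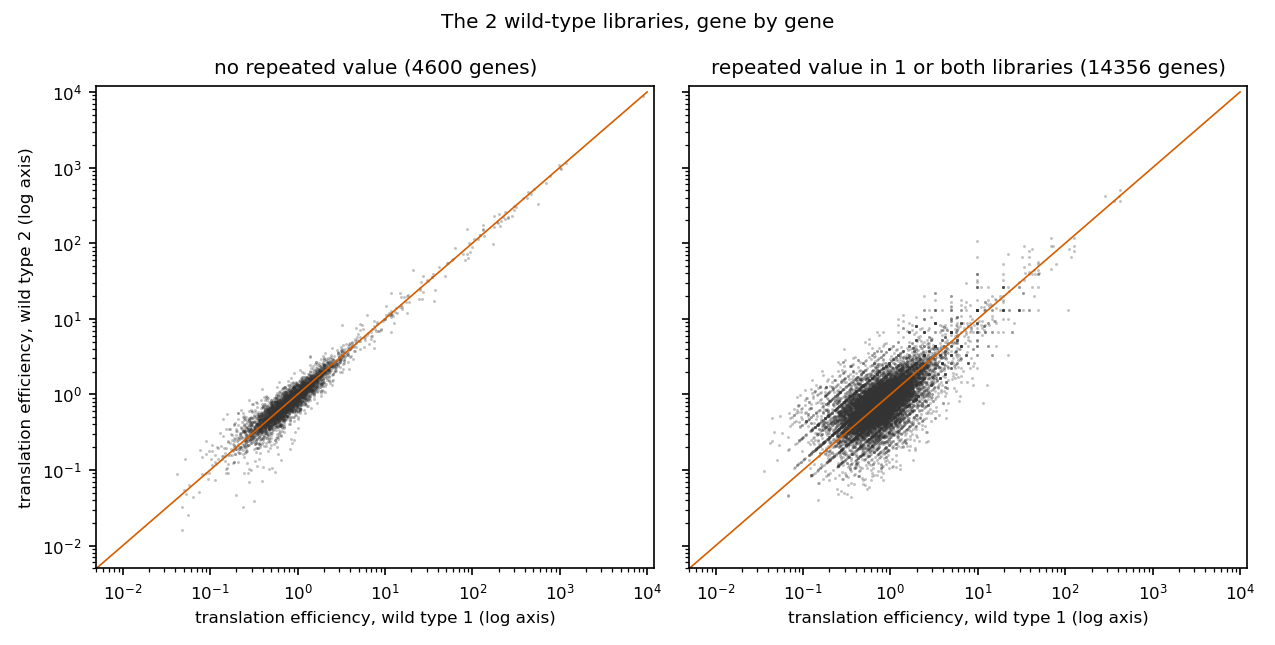
Translation efficiency of each gene in wild-type replicate 1 (horizontal, log axis) and replicate 2 (vertical, log axis), for the 4600 genes without a repeated value (left) and the 14356 with one (right); the line marks equal values. The left cloud is narrow, with a median fold difference of 1.13, and the right one is wider, at 1.36, and falls on a lattice of repeated ratios.

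Most genes lay close to the middle of the distribution. The median ratio was 0.769 in replicate 1 and 0.777 in replicate 2, the middle 50% of genes ran from 0.518 to 1.16 and from 0.518 to 1.18, and 55.7% of genes were between 0.5 and 2 in both libraries. The upper tail was long. Above 10 in both libraries were 199 genes, and above 100 in both were 43, up to 8898 and 8949 for sars2. The lowest ratio was 0.0361 in replicate 1 and 0.0160 in replicate 2. Just outside the rule were 693 genes listed at 0 in replicate 1 alone, whose replicate 2 ratios ran from 0.0881 to 79.3 with a median of 1.65, and 1182 genes listed at 0 in replicate 2 alone, whose replicate 1 ratios ran from 0.0103 to 77.9 with a median of 1.22.

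To describe the classes, a gene was called high where it was at or above the 90th percentile in both libraries (1.86 and 1.94), and low where it was at or below the 10th percentile in both (0.348 and 0.344). High were 1309 genes, which is 6.91% of all, and low were 826, which is 4.36%. For the 4600 genes without a repeated value the percentiles were taken anew within these genes. The limits were then 1.83 and 1.86 for high and 0.377 and 0.372 for low, by which 403 (8.76%) were high and 320 (6.96%) low. These shares therefore rest on other limits than those over all genes. Above the median in both libraries were 38.9% of all genes, and below it in both 38.9%. Among the 49 classes, which held 2074 genes, 16 had a median above that of all genes in both libraries, 28 had one below it in both, and 5 changed sides. The order of the class medians was close in both libraries, with a Spearman correlation over the 49 classes of 0.936, and in 43 of 49 the log2 difference from all genes was larger than its SD over the 2 libraries. No test over genes was made, since genes of a class are not replicates.

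**Figure D2:**
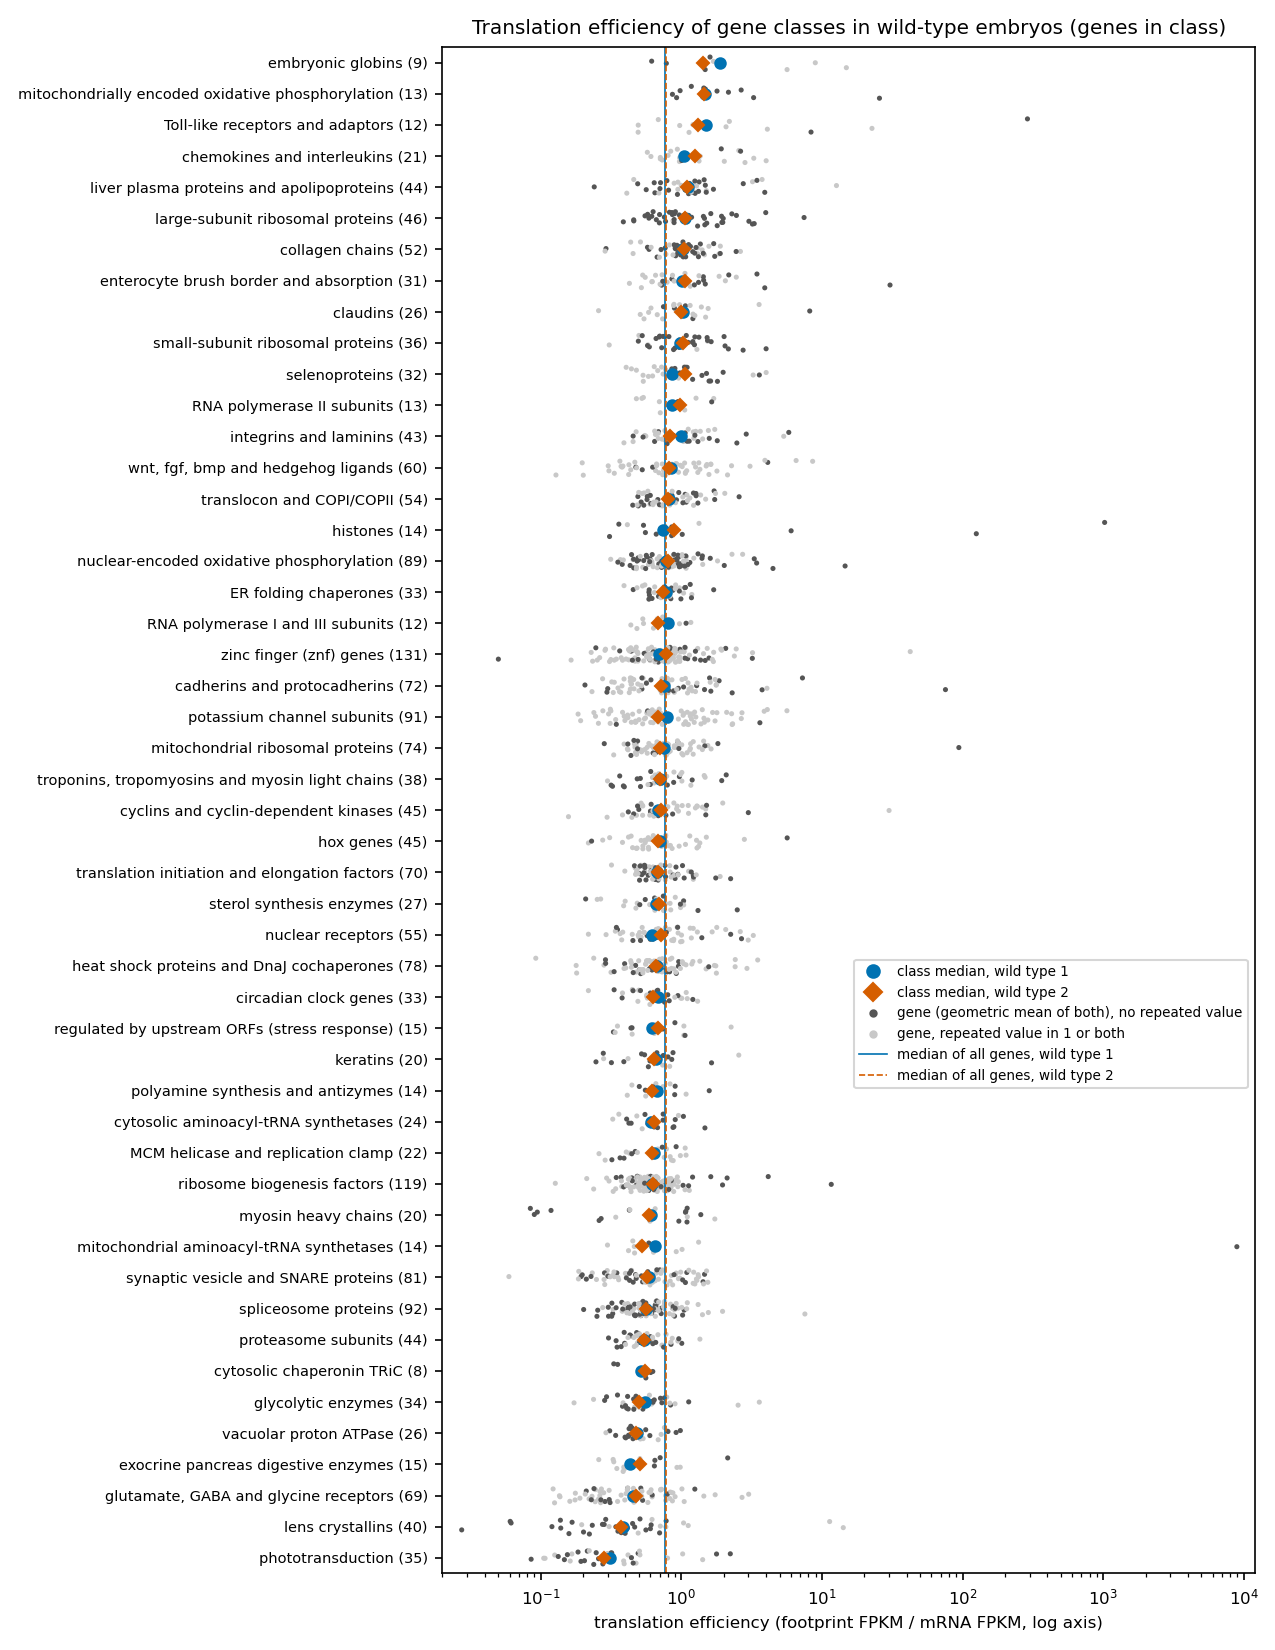
Translation efficiency (log axis) of the genes of 49 classes, with the number of genes of each class in brackets, ordered by the class median. Small points are genes (dark without, light with a repeated value), large symbols are the class medians in replicates 1 and 2 and vertical lines the medians of all genes, 0.769 and 0.777; medians ran from 1.87 and 1.42 in embryonic globins to 0.312 and 0.283 in phototransduction.

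Ribosomal proteins of the cytosol were above the middle but spread widely. Large-subunit proteins, all 46 of them measured and 45 without a repeated value, had median ratios of 1.06 and 1.07, a log2 difference from all genes of 0.46 ± 0.0063 (SD, n = 2 libraries). Of these, 9 (19.6%) were high and none low, set against 6.91% and 4.36% of all genes. Small-subunit proteins had medians of 0.983 and 1.02 over 36 genes, a log2 difference of 0.37 ± 0.028, with 5 (13.9%) high and none low.

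In the large subunit rpl9 stood highest, at 7.70 and 7.23. The acidic stalk protein gene rplp2, whose product helps recruit elongation factors, followed at 3.98 and 3.98, and rpl37 at 3.25 and 3.34. At the other end rpl3, which lies near the peptidyl transferase centre, had 0.382 and 0.392. Next to it were rpl6 with 0.469 and 0.448 and rpl10 with 0.455 and 0.463. Only rpl6 and rpl10 of these 6 did not differ from each other beyond the spread between libraries. In the small subunit rps29 led with 4.00 and 4.01, then rps28 with 2.80 and 2.70 and rps21 with 2.15 and 2.17. Lowest without a repeated value were rps9 at 0.494 and 0.495, rps2 at 0.520 and 0.534, and rps3 at 0.574 and 0.576. The proteins of rplp2, rpl37, rps29, rps28 and rps21 are known to be among the smallest of their subunits, and those of rpl3, rpl6, rps2 and rps3 among the larger ones. The other genes just named, rpl9, which was highest, and rpl10 and rps9, which were low, are in neither group.

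Ribosomal proteins were historically numbered by their position on two-dimensional gels, so that a higher number goes, roughly, with a smaller protein. Large-subunit proteins numbered 20 or above had medians of 1.46 and 1.6 over 19 genes, against 0.762 and 0.752 over the 21 with lower numbers. In the small subunit the 10 genes numbered 20 or above had medians of 1.49 and 1.55, against 0.798 and 0.833 over 21 genes with lower numbers. The Spearman correlation of number and ratio was 0.528 and 0.527 for 40 large-subunit genes, and 0.652 and 0.680 for 31 small-subunit genes. This division was chosen after the values were seen, and the genes share 1 mRNA measurement. Protein lengths were not used here.

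The rest of the translation machinery was below the ribosomal proteins. Initiation and elongation factors had medians of 0.675 and 0.686 over 70 genes, a log2 difference from all genes of -0.18 ± 0.0042 (SD, n = 2). Of the 70, 1 was high and 1 low, beside 6.91% and 4.36% of all genes. Elongation factors were lower, at 0.571 and 0.524 over 15 genes, than the cap-binding and helicase group eIF4, at 0.822 and 0.829 over 17. Of the 15 elongation factors 4 were above the median of all genes in both libraries and 10 below it, where 38.9% of all genes were on each side. Among them eef1b2, which reloads elongation factor 1 with GTP, had 2.26 and 2.22. The helicase gene eif4a1a had 1.77 and 1.74, and eif5a, whose product carries hypusine, 1.16 and 1.29. The lowest without a repeated value were the release factor gene gspt1 at 0.474 and 0.454, eif3m at 0.478 and 0.492 and eef1g at 0.524 and 0.485. The class of cytosolic aminoacyl-tRNA synthetases, which charge tRNAs, also held aimp1a, aimp1b and aimp2, which are not synthetases. It had medians of 0.613 and 0.640, with none of 24 genes high or low, beside 6.91% and 4.36% of all genes. Below the median of all genes in both libraries were 18 of 24, where 38.9% of all genes were. The isoleucine enzyme iars stood highest there, at 1.35 and 1.61.

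Ribosome assembly factors formed one of the largest classes. Over 119 genes the medians were 0.614 and 0.625, and 71 of them were below the median of all genes in both libraries while 16 were above it in both, where 38.9% of all genes were on each side. Only 25 had no repeated value. The nucleolar protein gene ncl was lowest of these at 0.366 and 0.324, with bysl at 0.390 and 0.357 and the helicase gene ddx21 at 0.441 and 0.343. Against the class, the helicase gene ddx54 had 11.2 and 12.1 and las1l, which takes part in the processing of the internal spacer of pre-rRNA, 4.53 and 3.80. Mitochondrial ribosomal proteins were near the middle, at 0.757 and 0.705 over 74 genes. The 15 of these without a repeated value were further down, at a log2 difference from all such genes of -0.32, while without simple fractions of the scale the class was at 0.03. Among them mrpl28 was far above the others at 98.4 and 89.9.

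The mitochondrially encoded genes were among the best measured. The mitochondrial genome encodes 13 proteins of the respiratory chain and the ATP synthase, translated by the mitochondrion's own ribosomes. None of the 13 had a repeated value, and their median fold difference between libraries was 1.01. Their medians were 1.47 and 1.46, a log2 difference from all genes of 0.92 ± 0.023 (SD, n = 2), and all 13 were above the median of all genes in both libraries, where 38.9% of all genes were. The ATP synthase gene mt-atp8 had 25.4 and 25.9. This was well above the next, mt-nd6, the complex I gene encoded on the opposite strand to the others, at 3.28 and 3.25.

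Below these were mt-nd5 at 2.66 and 2.66, mt-nd4l at 2.24 and 2.08 and mt-co2 at 1.79 and 1.80. A close group followed, with mt-nd4 at 1.47 and 1.49, mt-cyb at 1.47 and 1.46, mt-co3 at 1.46 and 1.44 and mt-nd3 at 1.48 and 1.41. Neighbours in this group did not differ beyond their spread between libraries. Then came mt-nd1 at 1.18 and 1.18, mt-atp6 at 0.981 and 0.979, mt-nd2 at 0.924 and 0.926 and mt-co1 at 0.868 and 0.860. The reading frames of mt-atp8 and mt-atp6 overlap and share 1 transcript, as those of mt-nd4l and mt-nd4 do, so how reads were split between them bears on both ratios, and the sources used here do not give that rule.

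Nuclear genes of the same complexes were at the middle of the distribution, with medians of 0.777 and 0.807 over 89 genes. Above the median of all genes in both libraries were 39 and below it 37, where 38.9% of all genes were on each side. Complex IV was at 0.867 and 0.863 over 18 genes, complex V at 0.777 and 0.770 over 19, and complex I at 0.745 and 0.807 over 37. Among them 6 genes were high and none low, a share of 6.74% high beside 6.91% of all genes. Their log2 difference from all genes, 0.03 ± 0.027, turned to -0.02 without simple fractions of the scale. Highest were cox7b of cytochrome oxidase at 14.9 and 14.3 and the ATP synthase genes atp5md at 4.69 and 4.28 and atp5f1e at 3.23 and 3.64. The lowest without a repeated value were ndufb9 at 0.287 and 0.435, the ATP synthase alpha subunit gene atp5fa1 at 0.363 and 0.397 and the iron-sulfur subunit sdhb at 0.483 and 0.386.

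**Figure D3:**
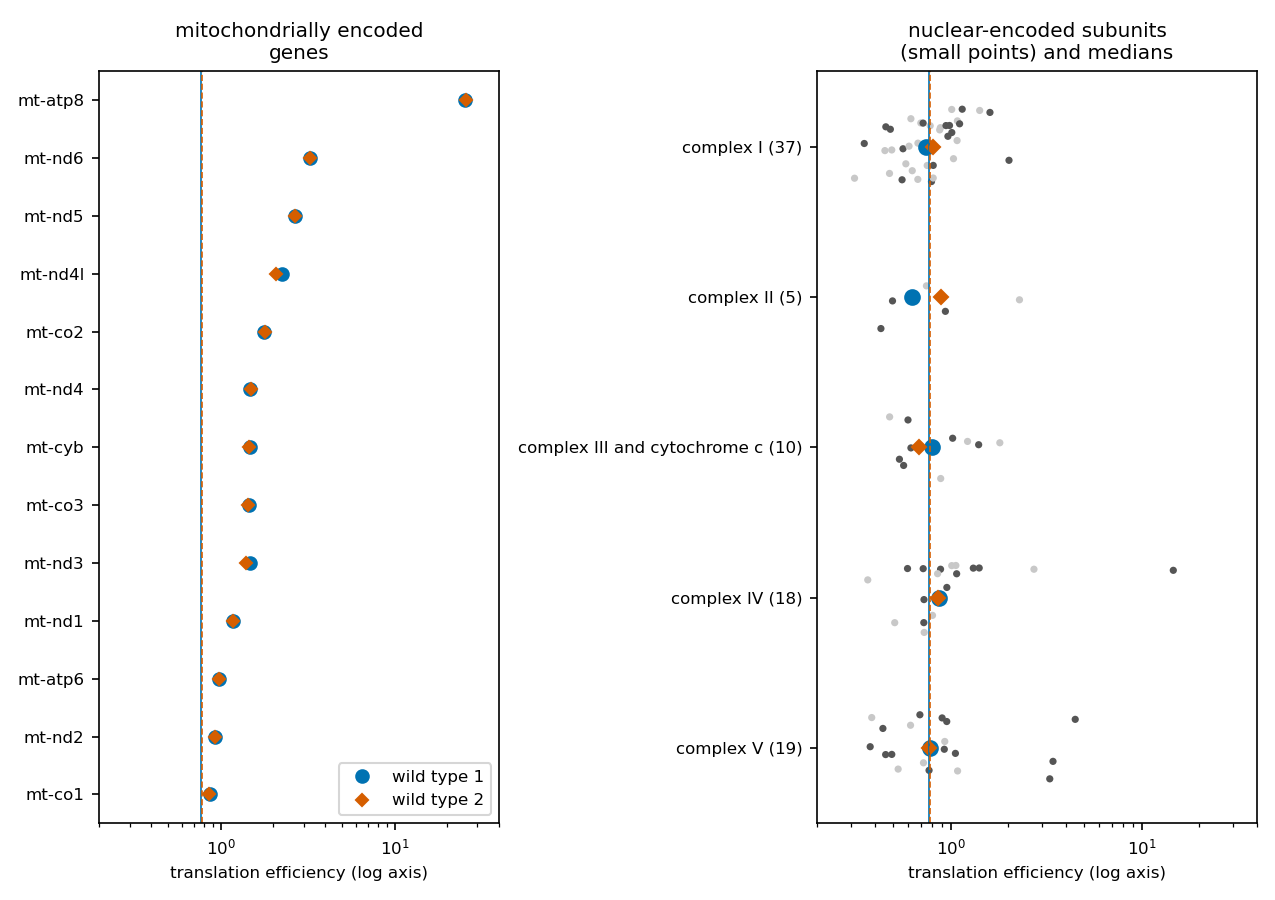
Translation efficiency (log axis) of the 13 mitochondrially encoded genes in both wild-type libraries (left) and of the nuclear-encoded subunits by complex (right; small points are genes, dark without a repeated value, large symbols the medians, vertical lines the medians of all genes). All 13 mitochondrial genes lie right of the lines, from mt-co1 at 0.868 and 0.860 to mt-atp8 at 25.4 and 25.9, while the nuclear medians lie around them.

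Genes of the integrated stress response, many of them known to be held back by upstream open reading frames, were a little below the middle, with medians of 0.619 and 0.686 over 15 genes, none high and 1 low against 4.36% of all genes. Such upstream frames are known to keep translation low until the initiation factor eIF2 is phosphorylated. The transcription factor genes atf5a at 0.316 and 0.343, atf4b at 0.434 and 0.458 and atf4a at 0.619 and 0.595 were all below the median of all genes, as were ifrd1 at 0.456 and 0.421 and slc35a4 at 0.268 and 0.460. Of both phosphatase regulators that reverse the response, ppp1r15a had 0.324 and 0.352 and ppp1r15b 1.77 and 2.88, the highest of the class. Also above the middle in both libraries were cebpa at 1.04 and 1.08 and the eIF2 kinase genes eif2ak3 at 0.951 and 1.14 and eif2ak1 at 1.15 and 0.940. The remaining kinase gene, eif2ak2, had 0.717 and 0.278. The others were cebpb at 0.676 and 1.2, ddit3 at 0.556 and 0.803, atf5b at 0.601 and 0.686 and xbp1 at 0.706 and 0.774. Except for cebpa, cebpb, xbp1, atf4b, ifrd1 and atf5a, each of these had a repeated value in 1 or both libraries.

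Polyamine genes had medians of 0.676 and 0.618 over 14 genes, of which 7 had no repeated value. Poorly covered, with a repeated value in 1 or both libraries, were srm, amd1, oaz2b, sms, odc1, sat1b and azin1a. Antizymes inhibit ornithine decarboxylase and are made only when ribosomes shift frame, a step that polyamines promote. Their genes oaz1a at 0.559 and 0.550 and oaz1b at 0.492 and 0.513 were below the median of all genes, while oaz2a had 0.941 and 0.855 and oaz2b 0.899 and 0.610. Ornithine decarboxylase itself, odc1, had 0.608 and 0.511, and the antizyme inhibitor genes azin1b and azin1a had 0.824 and 0.991, and 0.541 and 0.315. The polyamine acetylase gene sat1a.1 was highest at 1.5 and 1.66, with sat1a.2 at 0.562 and 0.658 and sat1b at 0.427 and 0.463. Synthesis genes lay between, with srm at 1.03 and 1.13, amd1 at 0.871 and 0.793 and sms at 0.720 and 0.603. So did the oxidase gene smox at 0.632 and 0.626.

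Selenoprotein mRNAs, in which a UGA codon is read as selenocysteine, had medians of 0.853 and 1.07 over 32 genes. None was low and 2 (6.25%) were high, beside 4.36% and 6.91% of all genes. High were the glutathione peroxidase genes gpx3, a plasma enzyme, at 4.33 and 2.97 and gpx2, of the gut lining, at 4.87 and 3.30. Repeated in both libraries, and so poorly covered, were gpx2 and, named below, selenou1b and selenon. The selenium transport proteins of plasma followed, selenop2 at 1.83 and 2.14 and selenop at 1.41 and 1.39. Also above the median of all genes in both libraries were selenou1b at 5.56 and 1.89, selenoi at 1.49 and 2.19, msrb1a at 1.46 and 1.78, selenow2b at 1.6 and 1.55, gpx4a at 1.43 and 1.59, selenos at 1.07 and 1.35, sephs2 at 0.953 and 1.27, selenow1 at 1.25 and 0.931, gpx4b at 1.03 and 1.08, selenou1a at 0.884 and 1.08, selenon at 0.828 and 1.1, selenot2 at 0.983 and 0.918, selenok at 0.863 and 0.937 and selenow2a at 0.843 and 0.868.

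Selenoproteins at or under the middle were mostly poorly covered. Between the libraries dio1 at 0.716 and 1.36, selenot1b at 0.726 and 1.14, selenoo1 at 0.545 and 0.845, selenoo2 at 0.389 and 1.06, selenoh at 0.823 and 0.413 and txnrd3 at 0.802 and 0.747 fell on both sides of the median. Below it in both were selenom at 0.756 and 0.727, selenof at 0.682 and 0.767, selenoj at 0.747 and 0.521, gpx1a at 0.500 and 0.575, selenot1a at 0.526 and 0.542, selenol at 0.336 and 0.683, gpx1b at 0.536 and 0.364 and dio2 at 0.348 and 0.472. Every gene in this paragraph had a repeated value.

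Phototransduction genes, which turn light into a change of membrane current in the photoreceptors of the retina, were the lowest of the 49 classes in both libraries. Over 35 genes the medians were 0.312 and 0.283, a log2 difference from all genes of -1.38 ± 0.11 (SD, n = 2), and 21 were low against 4.36% of all genes. In whole embryos each ratio averages over all cells that hold the mRNA, and the number of these cells enters both footprints and mRNA. Whether dissociation for Ribo-seq recovered all cell types alike was not tested, here or for the lens, muscle and neuron classes below. Of 7 opsins, the light receptors, 6 were low, with rho, the rod pigment, at 0.312 and 0.318, the ultraviolet cone pigment opn1sw1 at 0.316 and 0.324, the blue cone pigment opn1sw2 at 0.196 and 0.190 and the red cone pigment opn1lw2 at 0.141 and 0.154. The cone transducin gene gnat2 had 0.258 and 0.238, and the cone arrestin genes arr3a and arr3b had 0.207 and 0.202, and 0.112 and 0.158. The inhibitory phosphodiesterase subunits went apart. Lowest without a repeated value was the cone form pde6ha at 0.0947 and 0.0771, whereas pde6gb, a rod form, had 2.04 and 2.43, and the cone transducin gamma gene gngt2b 1.82 and 1.74. Green and red opsin genes exist as near-identical copies, and the sources used here do not say how reads matching several copies were counted, so their single values are uncertain.

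Lens crystallins, the structural proteins that make the lens transparent, were next lowest, with medians of 0.383 and 0.375 over 40 genes, a log2 difference of -1.03 ± 0.033, and 16 low against 4.36% of all genes. Gamma crystallins were the lower family, at 0.292 and 0.299 over 27 genes with 14 low, and beta crystallins were at 0.449 and 0.451 over 11 with 2 low. At the bottom were crygm2d5 at 0.0471 and 0.0160, crygm2d7 at 0.0575 and 0.0639 and crygm2d9 at 0.0421 and 0.0899. The beta crystallin genes cryba2a at 0.786 and 0.773 and cryba2b at 0.642 and 0.763 were highest without a repeated value. Among 2 high values, crygm3 had exactly the ratio 9.7345 in replicate 1 and 13.2091 in replicate 2, and crygm2e 12.2 and 16.5, so both are poorly covered. The crygm2d genes are a tandem family of near-identical copies, and their single values carry the same uncertainty as the opsins.

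Myosin heavy chains, the motor of the thick filament, had medians of 0.606 and 0.592 over 20 genes with 6 low, against 4.36% of all genes. Those 6 were myhz and smyhc genes of the skeletal muscle fibre, and they do not stand for all its chains. The fast chains myhz1.2 at 0.0814 and 0.0874, myhz1.3 at 0.0887 and 0.0914, myhz2 at 0.0966 and 0.0925 and myhz1.1 at 0.118 and 0.119 were among the lowest of all genes measured. The slow chains smyhc1 at 0.262 and 0.258 and smyhc2 at 0.261 and 0.277 were low as well, while smyhc3 at 0.339 and 0.345 was not. The non-muscle chains lay on both sides of the median of all genes, with myh9a at 1.07 and 1.13 and myh9b at 0.939 and 0.981 above it and myh10 at 0.574 and 0.622 below it. Above it too were the smooth muscle chain myh11a at 1.06 and 1.09 and myh14 at 1.15 and 1.05. Highest of the class without a repeated value was myhc4 at 1.37 and 1.38, and myhb was below the median at 0.665 and 0.637. The fast genes lie in near-identical copies, with the limit named above. Thin filament regulators and myosin light chains were nearer to the middle, at 0.704 and 0.706 over 38 genes with 1 low. The cardiac light chain myl7 had 1.83 and 2.05 and the fast muscle light chain mylpfa 0.318 and 0.330. The actin gene actc1a was at 0.113 and 0.0748.

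Neuronal receptor channels were low too, although poorly covered as a class. Glutamate, GABA and glycine receptors, which carry fast excitation and inhibition between neurons, had medians of 0.453 and 0.476 over 69 genes, of which 14 had no repeated value, and 20 were low, against 4.36% of all genes. Ionotropic and metabotropic glutamate receptors were at 0.481 and 0.484 over 39 genes and GABA and glycine receptors at 0.383 and 0.327 over 30. Lowest without a repeated value were the obligate NMDA receptor subunit grin1b at 0.217 and 0.204 and the AMPA receptor subunits gria2a at 0.209 and 0.251 and gria2b at 0.255 and 0.224. Highest without a repeated value was gabbr1a, a metabotropic GABA receptor, at 1.15 and 1.35. Synaptic vesicle and SNARE genes followed with medians of 0.584 and 0.568, 11 low and none high of 81, beside 4.36% and 6.91% of all genes. Highest without a repeated value were snap29 at 1.45 and 1.48, napab at 1.57 and 1.3 and vamp3 at 1.15 and 1.04. Lowest of those without a repeated value were the synaptotagmin gene syt5b at 0.220 and 0.170 and napgb at 0.161 and 0.241, whose product helps take SNARE complexes apart. The syntaxin gene stx3a was next at 0.222 and 0.201.

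**Figure D4:**
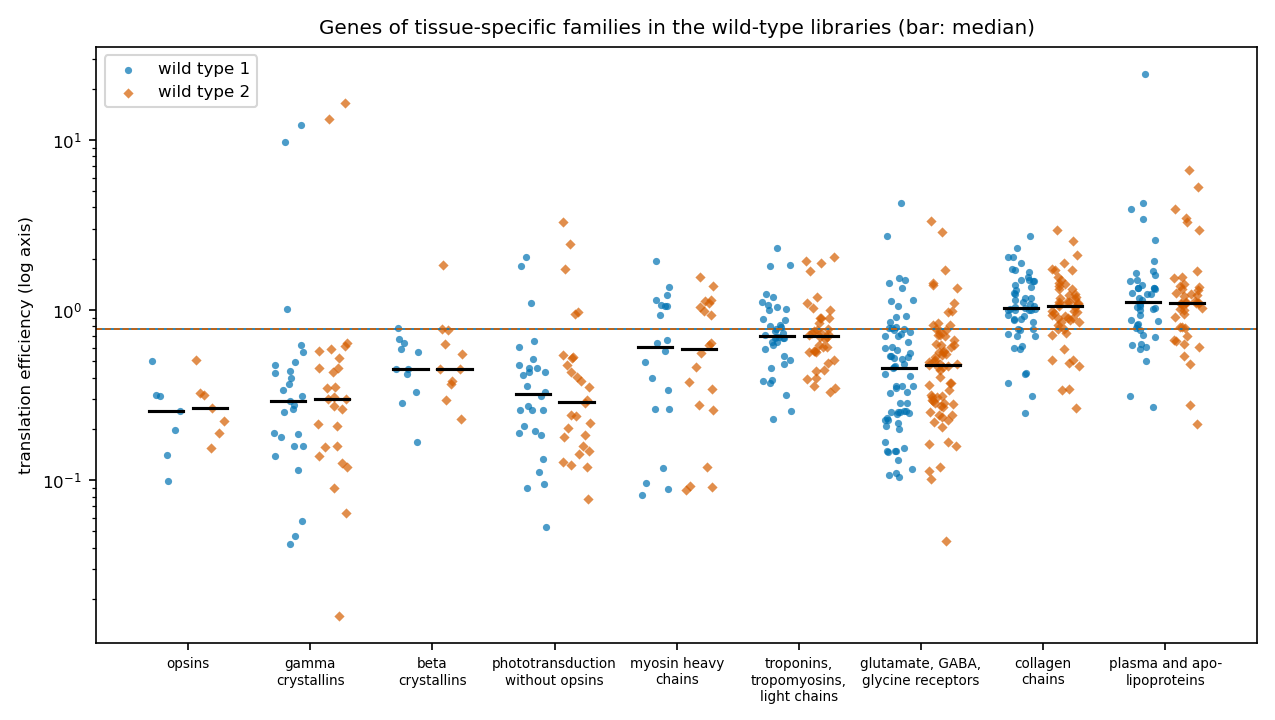
Translation efficiency (log axis) of the genes of 9 families in wild-type replicates 1 (circles) and 2 (diamonds), with black bars at the family medians and horizontal lines at the medians of all genes, 0.769 and 0.777. Opsins and gamma crystallins have their medians under 0.348, the limit of the lowest 10% of genes in replicate 1, myosin heavy chains reach from under 0.1 to above 1, and collagens and plasma proteins have their medians above the lines.

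Several large protein complexes had medians below the middle. The cytosolic chaperonin TRiC, which folds actin and tubulin in a ring of 8 different subunits, had all 8 genes without a repeated value and all 8 below the median of all genes in both libraries, where 38.9% of all genes were, with medians of 0.514 and 0.553. They ran from tcp1 at 0.328 and 0.333 and cct4 at 0.370 and 0.336 up to, by the mean of both libraries, cct5 at 0.598 and 0.656. Proteasome subunits had medians of 0.541 and 0.546 over 44 genes, a log2 difference from all genes of -0.51 ± 0.0013, and 32 were below the median of all genes in both libraries while 5 were above it in both, where 38.9% of all genes were on each side. The ATPase subunit psmc2 was lowest at 0.277 and 0.332, and the core subunit psma5 was highest without a repeated value at 0.986 and 1.03.

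The vacuolar proton ATPase, which acidifies lysosomes and vesicles, had medians of 0.484 and 0.474 over 26 genes, with 21 below the median of all genes in both libraries, where 38.9% of all genes were. None of the 12 genes of its ATP-hydrolysing sector was above that median in both libraries. Spliceosome proteins had medians of 0.557 and 0.565 over 92 genes. Within them the Sm and Lsm proteins, many of which bind snRNAs, were at the middle with 0.789 and 0.812 over 18 genes. Only 3 of these 18 had no repeated value, and those 3 had medians of 0.334 and 0.628. With repeated values kept, SR proteins were lower at 0.498 and 0.500 over 16 genes, 11 of them without a repeated value. So were hnRNPs at 0.539 and 0.536 over 23, 16 of them without one. The lowest without a repeated value were srsf5a at 0.212 and 0.192 and srsf11 at 0.252 and 0.250. Glycolytic enzymes were at 0.552 and 0.504 over 34 genes, where the pyruvate kinases differed, with pklr of liver at 1.1 and 1.15 and pkma at 0.287 and 0.300. The MCM helicase that unwinds replicating DNA was low within its class, with mcm2 at 0.395 and 0.386, mcm5 at 0.436 and 0.308 and mcm7 at 0.306 and 0.336, next to the replication clamp pcna at 0.752 and 0.712.

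Collagen chains, the fibres and sheets of the extracellular matrix, had medians of 1.02 and 1.05 over 52 genes, a log2 difference from all genes of 0.43 ± 0.017, and 38 (73.1%) were above the median of all genes in both libraries, where 38.9% of all genes were. Basement membrane chains were at 1.48 and 1.15 over 9 genes and fibrillar chains at 1.02 and 0.982 over 15. The highest without a repeated value were col5a3a at 2.03 and 2.96 and the basement membrane chains col4a1 at 1.88 and 1.90 and col4a6 at 1.74 and 1.72. The main chains of skin and bone, col1a1a at 0.995 and 0.982 and col1a2 at 1.15 and 1.11, and of cartilage, col2a1a at 0.939 and 0.931, were within a narrow range. Lowest without a repeated value was col14a1b at 0.246 and 0.344. Prolyl hydroxylase subunit p4hb, which acts on collagen in the endoplasmic reticulum, had 1.77 and 1.63, the highest without a repeated value among folding chaperones of that compartment, whose medians were 0.782 and 0.741.

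Plasma proteins of the liver and apolipoproteins had medians of 1.11 and 1.1 over 44 genes, with 6 (13.6%) high and 1 (2.27%) low, beside 6.91% and 4.36% of all genes. Of the 44 genes 27 had no repeated value. Among the 6 high ones vtg5, vtg7 and ahsg2 had one in both libraries, and so were poorly covered. The very long apolipoprotein B mRNAs apobb.1 at 3.91 and 3.93 and apoba at 3.42 and 3.48 stood highest without a repeated value, followed by coagulation factor V, f5, at 2.58 and 2.95. The 10 apolipoprotein genes as a group were at 1.34 and 1.32, and 9 of the 10 were above the median of all genes in both libraries, where 38.9% of all genes were. The retinol carrier rbp4 at 0.587 and 0.539, the protease inhibitor serpina1 at 0.498 and 0.481 and the macroglobulin gene a2ml at 0.268 and 0.215 were below it. Genes of the absorptive enterocyte had medians of 1.01 and 1.05 over 31 genes, with 6 (19.4%) high and none low, beside 6.91% and 4.36% of all genes. Of the 31 genes 12 had no repeated value, and the 6 high ones included apobb.1 and apoba, already counted above. In this class the endocytic receptor adaptor dab2 had 2.22 and 2.13, the fatty acid binding protein fabp2 1.27 and 1.63 and the lipid transfer protein mttp 1.64 and 1.26. The brush border protease mep1a.1 had 21.1 and 44.0. Its ratio equalled the scale times a fraction of small whole numbers, so it was likely poorly covered although not repeated. A numerator of at most 20 was also found for other genes named here without a repeated value. They included tcp1, psmc2, gspt1, gria2b, napgb, stx3a, srsf11, col5a3a, gabbr1a and vamp3, and hist2h3c, named below, had a divisor of that size. Their single values may be poorly covered too. Enzymes of the exocrine pancreas had lower medians, 0.435 and 0.512 over 15 genes. Of these 1 (6.67%) was low, beside 4.36% of all genes. Only 4 had no repeated value, and their medians, 0.745 and 0.706, were near those of all genes. Carboxypeptidase B, cpb1, had 2.19 and 2.08 and trypsin, prss1, 0.672 and 0.743.

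Embryonic globins had the highest class median in replicate 1 and the next to highest in replicate 2, at 1.87 and 1.42, but only 4 of 9 genes had no repeated value. Those 4 were hbbe2 at 1.87 and 1.37, hbae3 at 1.54 and 1.42, hbbe1.2 at 0.788 and 0.776 and hbbe1.1 at 0.565 and 0.669. The globin genes lie in clusters of near-identical copies. Toll-like receptors and their adaptors, at 1.51 and 1.32 over 12 genes, and chemokines and interleukins, at 1.05 and 1.26 over 21, had high medians as well, on 2 and 3 genes without a repeated value. Left out for a ratio of 0 were 5 of 17 and 15 of 36 listed genes. With those kept and a pseudocount of 0.1, the log2 differences from all genes went from 0.8623 to 0.7374 and from 0.5743 to 0.3745. Among the genes without a repeated value, the chemokines cxcl12a, which guides migrating cells, had 1.87 and 1.98 and ccl25a 2.94 and 2.37. The kinase gene irak1 had 8.16 and 8.57.

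Classes of developmental regulators were mostly poorly covered. Of 45 hox genes 3 had no repeated value, and the medians were 0.705 and 0.677. Of 60 ligands of the Wnt, Fgf, Bmp and Hedgehog families 6 had none, with medians of 0.840 and 0.811, and bmp4 had 0.825 and 0.824. The log2 difference of the ligands from all genes was above 0, and it was -0.18 over the 6 without a repeated value. Zinc finger genes had medians of 0.692 and 0.782 over 131 genes and nuclear receptors 0.621 and 0.720 over 55. Circadian clock genes had none high or low of 33, beside 6.91% and 4.36% of all genes, with medians of 0.684 and 0.629. There per3 was highest without a repeated value at 1.19 and 1.22 and cry3b lowest at 0.279 and 0.396. Among 27 sterol genes the regulator srebf1 stood out at 2.48 and 2.51, where the class medians were 0.657 and 0.698.

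The ends of the distribution held single genes of many kinds. Among genes with an assigned symbol and no repeated value, the mitochondrial seryl-tRNA synthetase sars2 was highest at 8898 and 8949, in a class of 14 genes whose medians were 0.646 and 0.529. The replication-dependent histone gene hist1h2a3 followed at 973 and 1077, with hist2h3c lower at 122 and 129. Such mRNAs are known to lack a poly(A) tail, and the sources used here do not say whether the RNA-seq selected poly(A) RNA. The similarly named hist2h2l had 0.523 and 0.968, repeated in both libraries, and the 14 histone genes had medians of 0.738 and 0.879. Next after hist1h2a3 was hapln3, a link protein of hyaluronan matrix, at 996 and 987. Then came tbxta, the Brachyury factor of the notochord, at 774 and 778, and spata6l at 514 and 515. Lower were the germ cell RNA-binding protein dazl at 563 and 328, gal3st1b at 319 and 298 and the peptide hormone apela at 301 and 314. The list closed with tlr1 at 302 and 277, arhgap15 at 235 and 257, jac6 at 214 and 198 and trim35-31 at 133 and 150.

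Many of these extreme ratios equalled a simple fraction of the scale. Of the 96 genes above 10 in both libraries with no repeated value, 59 had a ratio that equals the scale of the library times a fraction with a divisor of 20 or less, in 1 or both libraries, and over all 199 genes above 10 it was 162. Among the 12 highest just named, sars2, hapln3, tbxta and gal3st1b were not of this kind. Simple fractions were common among all genes too. With a small numerator counted as well as a small divisor, a wider rule, 4598 of all 18956 genes had none in either library. Of the 4600 genes without a repeated value 3659 had none. With simple fractions left out, a choice made after seeing the data, the highest after sars2, hapln3, tbxta and gal3st1b were mrpl28, mpp3b at 34.8 and 36.1, plekhd1 at 25.9 and 30.6 and mt-atp8. At the low end the 12 genes were crygm2d5, znf1179 at 0.0525 and 0.0475, rnps1 at 0.0500 and 0.0543, crygm2d7, crygm2d9, ano2a at 0.0755 and 0.0512, myhz1.2, rgs11 at 0.0515 and 0.140, pde6ha, qrich1 at 0.239 and 0.0324, myhz1.3 and actc1a. Among these 12 the ratios of crygm2d5, znf1179, rnps1, crygm2d9, ano2a, rgs11, pde6ha and qrich1 equalled the scale times a fraction with a small numerator in both libraries. With small fractions left out, the 12 lowest held the fast myosin genes myhz1.1, myhz1.2, myhz1.3 and myhz2, the actin gene actc1a, the gamma crystallins crygm2d17 and crygm2d21, opn1lw2, arr3b and the alpha-tubulin genes tuba1a at 0.147 and 0.167, tuba8l4 at 0.147 and 0.153 and tuba1b at 0.106 and 0.179, which are near-identical in sequence.

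The zebrafish lineage went through a whole-genome duplication, and many genes survive as a pair named a and b. Pairs were matched here by name alone, from symbols that differ by a final a or b. Some may therefore be separate members of a family rather than duplicates. Among 2363 such pairs with both genes measured, 293 had no repeated value in either gene or library. Within those the median fold between the copies was 1.43, 227 (77.5%) were within 2-fold, and 10 were more than 4-fold apart. The median fold between the libraries for the same gene was 1.13 over all genes without a repeated value. In 256 of the 293 pairs the same copy was higher in both libraries. Both libraries share 1 mRNA measurement, so 1.13 leaves out its error, while the fold between copies contains it. An error in that measurement would put the same copy higher in both libraries, so neither number tells how far copies differ beyond it. Across the 293 pairs the Pearson correlation of the copies' log2 ratios was 0.353 and the Spearman correlation 0.380, as a description across genes that share the libraries. The a copy was higher in 158 pairs and the b copy in 135.

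The most alike pairs were the protocadherins pcdh18a at 0.516 and 0.533 and pcdh18b at 0.447 and 0.615, the ribosomal protein genes rpl5a at 0.886 and 0.831 and rpl5b at 0.815 and 0.915, and the sodium pump subunits atp1b1a at 0.927 and 0.949 and atp1b1b at 0.901 and 0.949. In these the copies differed by no more than the libraries did. Least alike were the scaffold genes mpp3a at 0.674 and 0.633 and mpp3b at 34.8 and 36.1, then fam83ha at 10.8 and 11.3 and fam83hb at 0.841 and 1.63. The phosphatase subunits ppp2r5a at 2.42 and 2.34 and ppp2r5b at 0.290 and 0.244 followed, whose letters may instead name separate family members. Other pairs more than 4-fold apart in both libraries included the transferrin receptors, with tfr1a at 2.07 and 1.96 and tfr1b at 0.303 and 0.322, the citrate carriers, with slc25a1a at 0.457 and 0.399 and slc25a1b at 3.24 and 3.74, and the polycystins pkd1a at 1.99 and 2.42 and pkd1b at 0.472 and 0.548. In each of these pairs the libraries, which share 1 mRNA measurement, put the copies in the same order without overlap. The ppp2r5, slc25a1 and pkd1 pairs included a ratio that was a simple fraction of the scale, so they may be poorly covered.

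**Figure D5:**
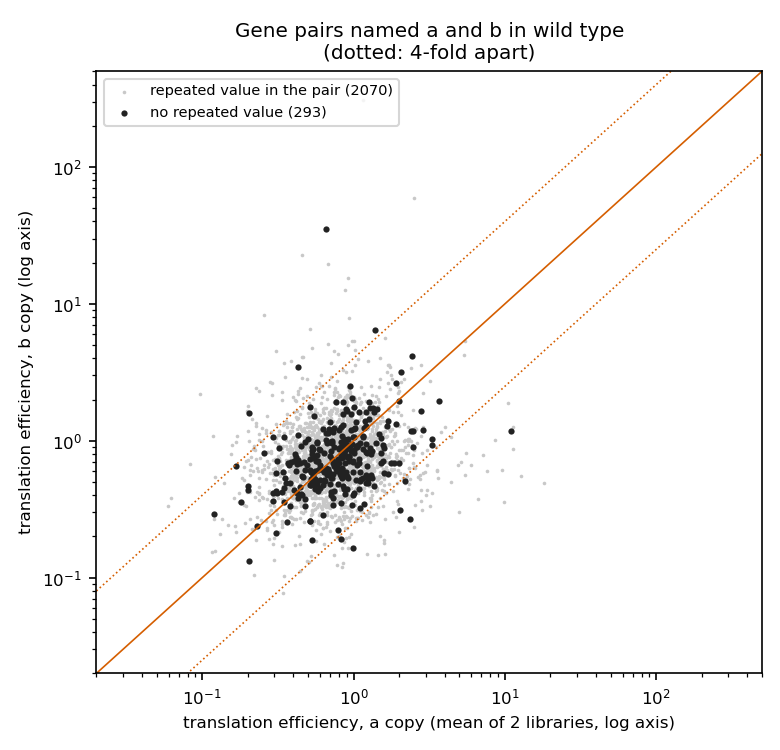
Mean translation efficiency over both wild-type libraries of the a copy (horizontal, log axis) and the b copy (vertical, log axis) of 2363 gene pairs matched by name, dark for the 293 pairs without a repeated value and light for the other 2070; the full line marks equal values and the dotted lines a 4-fold difference. Of the dark points 227 are within 2-fold and 10 lie outside the dotted lines.

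Kinds of gene name differed in how often they were high. Of 847 genes with a sequence contig name, 218 (25.7%) were high, against 6.91% of all genes, with medians of 1.02 and 1.1, and 63 of the 847 had no repeated value. Genes named after clones with the prefix si were high in 14.2% of 1634, and of 15463 genes with an assigned symbol 779 were high. Assigned symbols made up 59.5% of the high genes and 80.8% of the low genes, against 81.6% of all genes.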

How the data were processed

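Ribo-seq and RNA-seq were made from zebrafish embryos at 72 h after fertilization. The deposited table is named a translation efficiency matrix and its columns carry FPKM in their names, per the file headers, so its values, 1 per gene and Ribo-seq library, are read as the authors' ratios of footprint FPKM to mRNA FPKM. The submitters' processing notes name STAR, featureCounts, limma and GRCz11, without versions. Which RNA-seq sample was the divisor, whether reads were counted over coding sequence or whole transcripts, how multiply matching reads and overlapping genes were treated, and any poly(A) selection are not given in the sources used here; each can move a ratio. How fully dissociation for Ribo-seq recovered each cell type was not tested, and this too can move a ratio. Read depth is unknown, so no counting interval is given.

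Ratios were analysed as deposited in Python 3.11.15 with pandas 2.3.3 and numpy 2.4.6. Classes were described by their medians in each library beside those of all genes, with no test, and steps were tested on simulated data. A ratio was called a simple fraction where it equalled the scale of its library times a fraction with a numerator or divisor up to 20. Named were the 12 highest and 12 lowest genes, the 3 highest and 3 lowest of a class (assigned symbol, no repeated value), all mitochondrially encoded genes, all members of the lists on upstream reading frames, polyamines and selenoproteins, and the 3 most and least alike pairs; other genes were chosen after their values were seen. Genes, classes and lists were chosen with earlier results of these data known.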

Additional observations from a re-analysis of the deposited data

How the results depend on the processing

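The differences of a class median from all genes are on the log2 scale and run in the order large-subunit ribosomal proteins, translation factors, mitochondrially encoded genes. With genes at 0 kept and a pseudocount of 0.1 they were 0.4702, -0.1094 and 0.8982, with 0.0765 in nuclear oxidative phosphorylation; the median ratio was 0.7399 and the SD over genes 1.169. With a pseudocount of 0.1 they were 0.4148, -0.1611 and 0.8428, with 0.336 in small-subunit ribosomal proteins, 0.3829 in collagens, -1.136 in phototransduction and an SD of 1.031. With a pseudocount of 1 the same were 0.2192, -0.07706, 0.4758, 0.1752, 0.2012, -0.4504 and 0.6936. Without poorly covered genes at 9 digits they were 0.472, -0.214 and 0.8996, with -0.3197 in mitochondrial ribosomal proteins, 0.08624 in nuclear oxidative phosphorylation, 0.3923 in collagens and -1.664 in phototransduction; 403 genes were high and 320 low, the median was 0.7855 and the SD 1.324, and the direction turned in cadherins to 0.1893, in ligands to -0.1808, in zinc finger genes to 0.07275 and in endoplasmic reticulum chaperones to 0.07129. At 6 digits the same were 0.4727, -0.248, 0.9002, -0.3191, 0.08691, 0.3929, -1.663, 403, 319, 0.7851, 1.326, 0.19 and -0.1801. With assigned symbols alone they were 0.4944, -0.1495 and 0.9569, with 0.408 in small-subunit proteins, 0.06868 in nuclear oxidative phosphorylation, 0.4596 in collagens, a median of 0.7549 and an SD of 0.979.

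With means in place of medians they were 0.5068, -0.2044 and 1.202, with 0.3137 in small-subunit proteins, 0.2948 in collagens and a centre of 0.8167, and mitochondrial synthetases turned to 0.49. Without simple fractions of the scale, chosen after seeing the data, they were 0.3367, -0.2732 and 0.7992, with 0.2502, 0.02764 and -0.02014 in small-subunit, mitochondrial ribosomal and nuclear oxidative phosphorylation genes, 0.247 in collagens and -1.568 in phototransduction; 380 genes were high and 332 low, the median was 0.8421 and the SD 0.9141. Directions turned there also in cadherins, to 0.1421, ligands, to -0.4305, zinc finger genes, to 0.1109, and histones, to -0.1746. With 1 library left out an SD of 1.187 to 1.215 was found, and the count of low genes, 1896 to 1903, is then fixed by the percentile itself. Other causes were not tested. The sign of the class difference was kept in 49 of 49 classes with either pseudocount, 48 with assigned symbols, with means or without replicate 1, 47 with genes at 0 kept and 45 without replicate 2, and in 41 of 45 without poorly covered genes and 39 of 45 without simple fractions.

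No paired analysis was possible because all values come from 1 genotype and no test between groups was made. Depth is unknown, the labels do not say whether libraries came from separate clutches, both share 1 mRNA measurement, and 75.7% of genes had a repeated value, so single ratios of such genes carry little precision.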
